A study of Mus musculus with 18 samples.

Results

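The genes described here are 10 hormones and markers of enteroendocrine cells, the hormone-secreting cells of the gut epithelium. They were taken by gene name from a table of 56748 genes and comprise the hormone genes Pyy, Insl5, Gcg, Sct, Cck and Tac1, the enzyme gene Tph1, the granule genes Chga and Chgb, and the transcription factor gene Neurod1. Their expression was measured by bulk RNA sequencing of poly-A RNA in 18 libraries of organoids, which are self-organising epithelial cultures, from the mouse colon. The organoids came from the proximal, mid or distal colon and were kept in 1 of 2 media. The control medium was ENR (EGF, Noggin and R-spondin) with Wnt3a-conditioned medium, which keeps the cultures proliferating, and the other was a differentiation medium of unstated composition. Both were applied 3 days after passaging. Each of the 6 groups of region and medium holds 3 libraries, and strain, age and any genetic alteration of the donor mice are not given in the sources used here. Nothing in the labels says whether replicate numbers stand for separate mice or for cultures of 1 mouse, so the p-values measure only the spread between these libraries, which may be technical.

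Enteroendocrine cells are scattered single cells that arise from secretory progenitors, under transient expression of the transcription factor Neurog3, and store peptides in dense-core granules. In the large intestine the L-cells make peptide YY, proglucagon and insulin-like peptide 5 together, whereas enterochromaffin cells make serotonin through tryptophan hydroxylase and can also express the tachykinin precursor gene Tac1. Secretin and cholecystokinin are better known from the small intestine. Both chromogranins, which package the granule content, are used as markers across these cell types.

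Recovered depth was 12827751 to 19938198 reads per library. The cultures had epithelial profiles, with Epcam, an epithelial adhesion gene, at 336 to 1182 FPKM (a read count adjusted for gene length and sequencing depth), and at most 0.0130 FPKM for Ptprc, which marks blood cells. The library of proximal organoids in differentiation medium with replicate number 1 stood apart from its group on the first principal component of all tested genes, at 5.80 against 44.1 and 37.9, and leaving it out changed no call of the 7 tested hormone and marker genes in the proximal medium comparison. A gene was tested where it reached an FPKM of 1 in at least 3 libraries, which 12896 genes and 7 of the 10 did. Cck, Tph1 and Neurod1 did not reach an FPKM of 1 in any library, so the counts over 7 genes are not counts over all 10. Sct reached it in 5 libraries, all in differentiation medium, and Tac1 would not have passed on control libraries alone. Insl5, Gcg and Tac1 did not reach it in any proximal library. These genes passed through the groups where they were high, so the counts of called genes are not independent of the filter. Called means an adjusted p under 0.05 from limma on log2(FPKM + 1), adjusted over all 12896 genes.

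In differentiation medium, Pyy, Chgb and Chga were higher than in control medium in all 3 regions, Tac1 and Insl5 were higher in mid and distal organoids, Sct was higher in proximal and mid organoids, and Gcg was called in mid organoids only. In proximal organoids 4 of the 7 tested genes were called, all higher, where 27.6% of all tested genes were called higher and 53.8% were called in either direction. In mid organoids all 7 were called higher, where 31.5% of all tested genes were called higher and 63.5% in either direction. In distal organoids 5 were called higher, where the shares of all tested genes were 31.6% and 62.9%. The median log2 fold change over the 7 genes was 0.81 in proximal, 1.64 in mid and 1.85 in distal organoids, and that over all tested genes was -0.01, 0.00 and 0.00. In these bulk libraries, more endocrine cells and more RNA of these genes per cell cannot be told apart. Markers of another secretory cell type, the mucus-making goblet cells, moved in the same direction: 8, 7 and 8 of the 9 tested goblet genes were called higher in proximal, mid and distal organoids, and the part of the other cell types in these results was not tested.

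**Figure D1:**
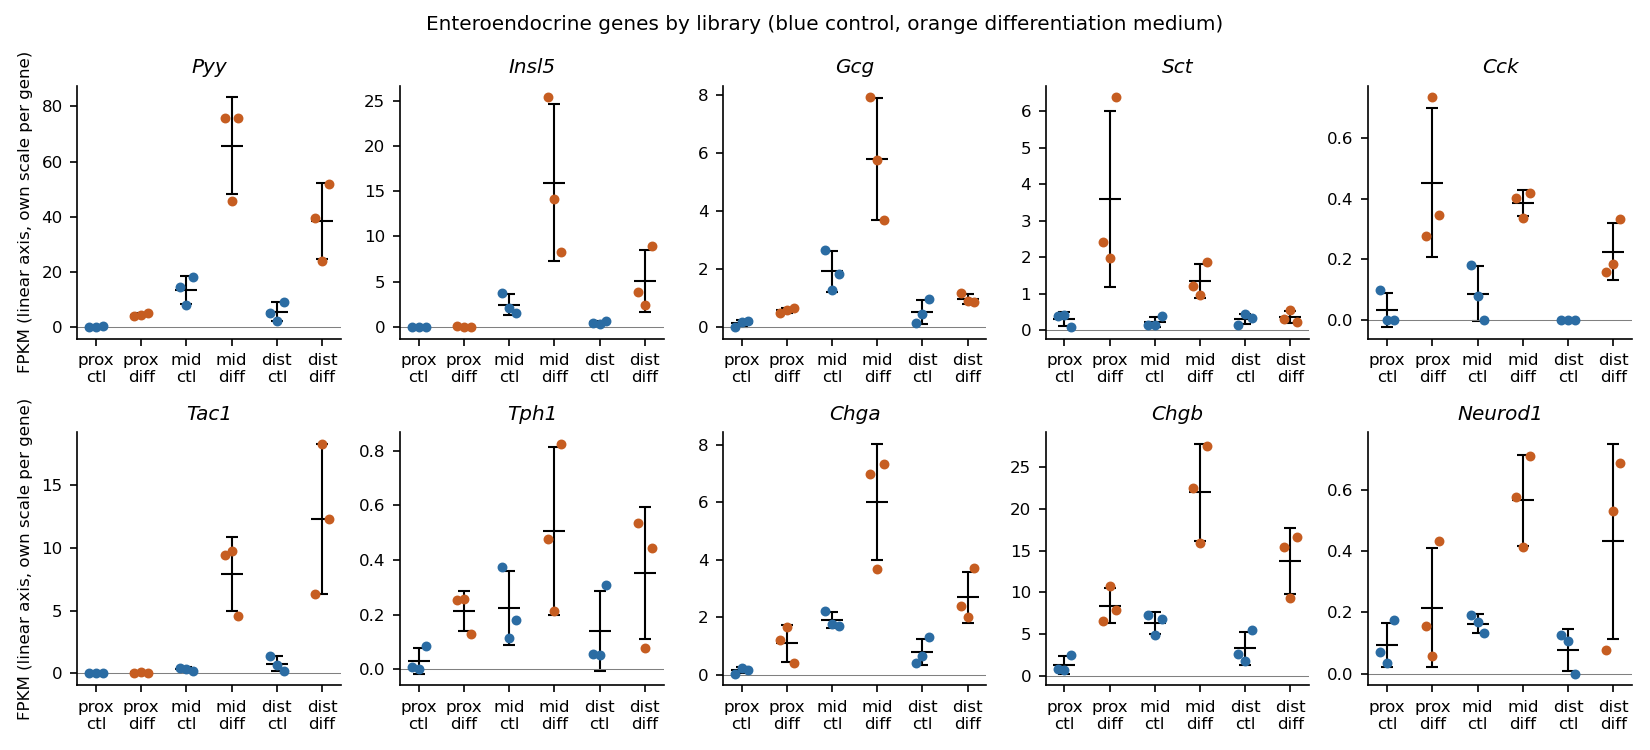
FPKM of the 10 genes in each of the 18 libraries, on a linear axis with its own scale for each gene, for proximal (prox), mid and distal (dist) organoids in control (ctl, blue) and differentiation (diff, orange) medium. Points are libraries, and black marks are group means with SD over 3 libraries. Pyy reaches 76.0 FPKM in mid differentiation libraries, Tac1 is highest in distal and Sct in proximal differentiation libraries.

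The L-cell hormones are described first. Pyy (ENSMUSG00000017311, mm39 chromosome 11, 101997502 to 101998658, minus strand) encodes peptide YY, which slows gut transit and curbs appetite. Insl5 (ENSMUSG00000066090, chromosome 4, 102875069 to 102884039, minus strand) encodes insulin-like peptide 5, a relaxin-family hormone of the colon. Gcg (ENSMUSG00000000394, chromosome 2, 62304874 to 62313994, minus strand) encodes proglucagon, which L-cells cut into glucagon-like peptides. The 250 bases before the annotated start of each are shown because these genes are known from the same cells and differed between regions below. They come from RefSeq on GRCm38.p6 in the direction of the gene. Capitals mark CAGATG, an E-box bound by neurogenic factors, and TATAAA, the letters of a TATA box, each on either strand.
Pyy, chr11:102107833-102108082, minus strand: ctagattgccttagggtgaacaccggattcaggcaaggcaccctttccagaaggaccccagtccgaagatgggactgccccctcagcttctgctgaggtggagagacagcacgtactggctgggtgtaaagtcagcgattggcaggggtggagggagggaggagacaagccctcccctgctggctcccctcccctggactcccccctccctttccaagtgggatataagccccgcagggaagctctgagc
Insl5, chr4:103027272-103027521, minus strand: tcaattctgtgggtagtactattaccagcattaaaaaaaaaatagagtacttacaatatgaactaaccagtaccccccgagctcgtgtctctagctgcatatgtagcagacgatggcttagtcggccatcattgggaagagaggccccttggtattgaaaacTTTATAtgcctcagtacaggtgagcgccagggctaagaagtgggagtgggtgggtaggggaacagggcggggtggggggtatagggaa
Gcg, chr2:62483654-62483903, minus strand: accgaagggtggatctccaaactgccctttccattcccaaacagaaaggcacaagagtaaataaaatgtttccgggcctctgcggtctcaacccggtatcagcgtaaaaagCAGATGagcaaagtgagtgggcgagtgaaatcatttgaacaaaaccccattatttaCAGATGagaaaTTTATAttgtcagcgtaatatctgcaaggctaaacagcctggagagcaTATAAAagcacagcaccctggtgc
CAGATG or its complement CATCTG was found in 4 of the 10 genes (Tac1, Cck, Gcg and Sct) and in 14.5% of 27025 RefSeq promoters of the same length. TATAAA or TTTATA was found in 3 of the 10 (Gcg, Sct and Insl5) and in 13.0% of those promoters. Insl5 held only TTTATA, which is TATAAA on the opposite strand, so it had no TATAAA in the direction of the gene. All 10 genes were matched by symbol, and a match describes letters and not a bound site.

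Pyy had the highest FPKM of the 10 genes in every differentiation group but the proximal one, where Chgb was higher. In control medium it was at 0, 0 and 0.189 FPKM in the 3 proximal libraries, 14.7, 8.02 and 17.9 in the mid and 5.23, 2.20 and 9.04 in the distal libraries. With differentiation medium Pyy was at 4.01, 4.30 and 4.91 FPKM in proximal, 76.0, 45.7 and 75.8 in mid libraries, and 39.3, 24.0 and 51.8 in distal libraries. Control and differentiation libraries did not overlap in any region, and the mid and distal libraries overlapped within each medium. The log2 fold change with differentiation medium was 2.35 ± 0.37 (SE) in proximal organoids (limma, adjusted p = 0.00011), 2.23 ± 0.37 in mid (adjusted p = 9.53e-05) and 2.69 ± 0.37 in distal organoids (adjusted p = 2e-05). As ratios of mean FPKM these were 4.86-fold in mid and 7.0-fold in distal organoids. In proximal organoids the comparison rested on 131 reads against 2, a ratio of 75.3 per library size (95% exact interval 20.4 to 629, counting error only).

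Insl5 was a mid and distal gene. Proximal organoids gave 0 reads in all 3 control libraries and 1 read in 1 differentiation library. In control medium the mid libraries were at 3.73, 2.12 and 1.49 FPKM and the distal libraries at 0.476, 0.330 and 0.695. In differentiation medium the mid libraries were at 25.4, 14.1 and 8.29 FPKM and the distal libraries at 3.84, 2.42 and 8.89. Differentiation libraries were above control libraries in both regions without overlap, and the 2 regions overlapped only in differentiation medium. The log2 fold change with differentiation medium was 2.22 ± 0.36 in mid (adjusted p = 8.73e-05) and 1.87 ± 0.36 in distal organoids (adjusted p = 0.000383), or 6.51-fold and 10.1-fold by mean FPKM. Without distal differentiation replicate 3 the distal fold was 6.26. In proximal organoids the value was 0.04 ± 0.36.

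Gcg differed from Pyy and Insl5 in where its response was called. In control medium it was at 0, 0.186 and 0.200 FPKM in proximal, 2.67, 1.27 and 1.82 in mid libraries, and 0.132, 0.448 and 0.973 in distal libraries. With differentiation medium Gcg was at 0.484, 0.588 and 0.641 FPKM in proximal, 7.90, 5.75 and 3.69 in mid libraries, and 1.17, 0.890 and 0.872 in distal libraries. Mid libraries were above those of both other regions within each medium without overlap, and the distal control and distal differentiation libraries overlapped. The log2 fold change with differentiation medium was 1.20 ± 0.23 in mid organoids (adjusted p = 0.000375, 3.02-fold by mean FPKM). It was 0.48 ± 0.23 in proximal (adjusted p = 0.0937) and 0.42 ± 0.23 in distal organoids (adjusted p = 0.131), and the difference in response between regions was not called for Gcg (moderated F test, adjusted p = 0.227). With a pseudocount of 0.1 the proximal response was called (adjusted p = 0.0112), as it was with only the groups compared in the fit (adjusted p = 0.0118), and without distal control replicate 3 the distal response was called (adjusted p = 0.0357).

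Secretin and cholecystokinin genes were at low levels. Sct (ENSMUSG00000038580, chromosome 7, 140858243 to 140859046, minus strand) encodes secretin, which stimulates bicarbonate secretion. In control medium its FPKM was 0.399, 0.430 and 0.0926 in proximal, 0.147, 0.158 and 0.397 in mid libraries, and 0.153, 0.445 and 0.347 in distal libraries, so the regions overlapped. With differentiation medium it was 2.43, 1.98 and 6.38 in proximal, 1.22, 0.972 and 1.88 in mid libraries, and 0.319, 0.562 and 0.224 in distal libraries, which puts the 3 regions in order without overlap. The log2 fold change with differentiation medium was 1.70 ± 0.26 in proximal organoids (adjusted p = 0.0001), 0.92 ± 0.26 in mid (adjusted p = 0.00676) and 0.06 ± 0.26 in distal organoids (adjusted p = 0.864). By mean FPKM Sct rose 11.7-fold in proximal and 5.80-fold in mid organoids, on 115 against 11 and 42 against 9 reads over the 3 libraries. The proximal fold was 7.17 without proximal differentiation replicate 3, and the mid fold 8.89 without mid control replicate 3.

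Cck (ENSMUSG00000032532, chromosome 9, 121318890 to 121324760, minus strand) encodes cholecystokinin, which drives bile and pancreatic enzyme release. It was found with 2, 7 and 0 reads over the 3 control libraries of proximal, mid and distal organoids, and with 26, 24 and 12 reads in differentiation medium. Its differentiation libraries ranged from 0.158 to 0.734 FPKM and its control libraries from 0 to 0.182. In a fit with no filter on low values, where 12.6%, 15.4% and 14.6% of 28798 genes were called higher in proximal, mid and distal organoids, Cck was called higher in each, with log2 fold changes of 0.48 ± 0.10, 0.35 ± 0.10 and 0.29 ± 0.10 (adjusted p = 0.00197, 0.0109 and 0.0341). The proximal ratio was 15 (95% exact interval 3.74 to 130, counting error only), and in distal organoids Cck was at least 5.77-fold higher against a floor of 3 reads over the control group.

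Tac1 and Tph1 are the genes of the list linked to enterochromaffin cells. Tac1 (ENSMUSG00000061762, chromosome 6, 7554879 to 7565834, plus strand) encodes the precursor of substance P, which contracts gut muscle, and enteric neurons express it too. It was at 0, 0 and 0.0527 FPKM in proximal control libraries and 0.0177, 0.141 and 0.0663 in proximal differentiation libraries. Mid control libraries were at 0.446, 0.376 and 0.166 FPKM and mid differentiation libraries at 9.40, 9.76 and 4.53. Distal control libraries were at 1.38, 0.703 and 0.197 FPKM and distal differentiation libraries at 6.33, 18.2 and 12.3. The media did not overlap in mid or distal organoids and overlapped in proximal organoids.

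Tac1 rose with differentiation medium by a log2 fold change of 2.69 ± 0.32 in mid (adjusted p = 4.43e-06) and 2.87 ± 0.32 in distal organoids (adjusted p = 2.72e-06), which were 24.0-fold and 16.2-fold by mean FPKM. The distal fold was 27.3 without distal control replicate 1. In proximal organoids the log2 value was 0.08 ± 0.32, on 11 reads against 3. Per library size these reads gave a ratio of 4.22 (95% exact interval 1.11 to 23.5, counting error only). With no filter and a pseudocount of 0.1 the proximal log2 value was 0.54 ± 0.55 and was not called (limma, adjusted p = 0.57). The summed markers of enteric neurons and glia were below Tac1 in the mid and distal differentiation libraries. They were above it in both proximal groups and in mid control libraries, and the ranges overlapped in distal control libraries. Any part of such cells in the Tac1 values was not tested. None of the 12 markers passed the filter, and the glial gene Sox10 was at 0 in all 18 libraries. Their summed FPKM ranged from 0.389 to 0.453 in proximal control, 0.472 to 0.682 in proximal differentiation, 0.652 to 0.730 in mid control, 0.592 to 1.17 in mid differentiation, 0.147 to 0.448 in distal control and 0.225 to 0.463 in distal differentiation libraries.

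Tph1 (ENSMUSG00000040046, chromosome 7, 46294065 to 46321961, minus strand) encodes the rate-limiting enzyme of serotonin synthesis in the gut. Its FPKM was 0.0104, 0 and 0.0871 in proximal, 0.376, 0.116 and 0.183 in mid libraries, and 0.0559, 0.0542 and 0.308 in distal control libraries. In differentiation medium it was 0.254, 0.259 and 0.128 in proximal, 0.478, 0.213 and 0.825 in mid libraries, and 0.534, 0.0784 and 0.446 in distal libraries. The media overlapped in mid and distal organoids. In the fit with no filter the log2 fold changes were 0.23 ± 0.15, 0.28 ± 0.15 and 0.24 ± 0.15 in proximal, mid and distal organoids, and none was called (adjusted p = 0.323, 0.203 and 0.291).

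Both chromogranin genes rose in every region, and the lineage factor Neurod1 was near the limit of detection. Chga (ENSMUSG00000021194, chromosome 12, 102521228 to 102531287, plus strand) and Chgb (ENSMUSG00000027350, chromosome 2, 132623198 to 132636999, plus strand) encode chromogranins A and B. For these 2 genes and for Tac1, Cck and Tph1 the 60 bases from 80 to 21 bases before the annotated start are shown, because each holds TGACG or its complement CGTCA, the core of a cAMP response element, in capitals. The window was chosen after the matches were seen. The sequences are from RefSeq on GRCm38.p6, in the direction of the gene.
Chga, chr12:102554861-102554920, plus strand: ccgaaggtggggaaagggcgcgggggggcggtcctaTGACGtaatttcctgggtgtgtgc
Chgb, chr2:132781562-132781621, plus strand: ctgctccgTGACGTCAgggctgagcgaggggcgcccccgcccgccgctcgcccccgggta
Tac1, chr6:7554981-7555040, plus strand: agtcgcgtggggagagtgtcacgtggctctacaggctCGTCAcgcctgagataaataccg
Cck, chr9:121495715-121495774, minus strand: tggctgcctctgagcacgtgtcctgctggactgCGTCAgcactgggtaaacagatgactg
Tph1, chr7:46672558-46672617, minus strand: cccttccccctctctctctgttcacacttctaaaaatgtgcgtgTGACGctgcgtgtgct
In Chgb the matches on both strands overlap. This window held the letters in 6.76% of 27025 RefSeq promoters, and the 250 bases before the start held them in 17.9% of promoters and in these 5 of the 10 genes.

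Chga was at 0.0467, 0.252 and 0.173 FPKM in proximal, 2.22, 1.78 and 1.69 in mid libraries, and 0.429, 0.642 and 1.32 in distal control libraries. In differentiation medium it was at 1.22, 1.65 and 0.409 FPKM in proximal, 7.0, 3.69 and 7.35 in mid libraries, and 2.39, 2.0 and 3.70 in distal libraries. The media did not overlap in any region. The log2 fold change was 0.81 ± 0.26 in proximal (adjusted p = 0.0169), 1.23 ± 0.26 in mid (adjusted p = 0.000795) and 1.04 ± 0.26 in distal organoids (adjusted p = 0.00282). The proximal value missed the threshold when proximal control replicate 1 (adjusted p = 0.0539) or proximal differentiation replicate 2 (adjusted p = 0.0903) was left out.

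Chgb was at 0.751, 0.642 and 2.53 FPKM in proximal, 7.32, 4.85 and 6.79 in mid libraries, and 2.62, 1.71 and 5.43 in distal control libraries. The differentiation values were 6.55, 10.7 and 7.90 FPKM in proximal, 22.5, 15.9 and 27.5 in mid libraries, and 15.4, 9.29 and 16.6 in distal libraries. Again the media did not overlap in any region. The log2 fold change was 2.09 ± 0.34 in proximal (adjusted p = 0.000149), 1.64 ± 0.34 in mid (adjusted p = 0.000665) and 1.85 ± 0.34 in distal organoids (adjusted p = 0.000246), or 6.42-fold, 3.48-fold and 4.23-fold by mean FPKM. The proximal fold was 12.0 without proximal control replicate 3, and the distal fold 6.36 without distal control replicate 3.

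Neurod1 (ENSMUSG00000034701, chromosome 2, 79282865 to 79287095, minus strand) encodes a transcription factor that acts downstream of Neurog3 in endocrine differentiation. Its control libraries ranged from 0 to 0.191 FPKM and its differentiation libraries from 0.0585 to 0.711. In the fit with no filter its log2 fold change with differentiation medium was 0.14 ± 0.14 in proximal (adjusted p = 0.575), 0.43 ± 0.14 in mid (adjusted p = 0.0368) and 0.39 ± 0.14 in distal organoids (adjusted p = 0.059). At a pseudocount of 0.1 the mid value was not called (adjusted p = 0.0971).

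**Figure D2:**
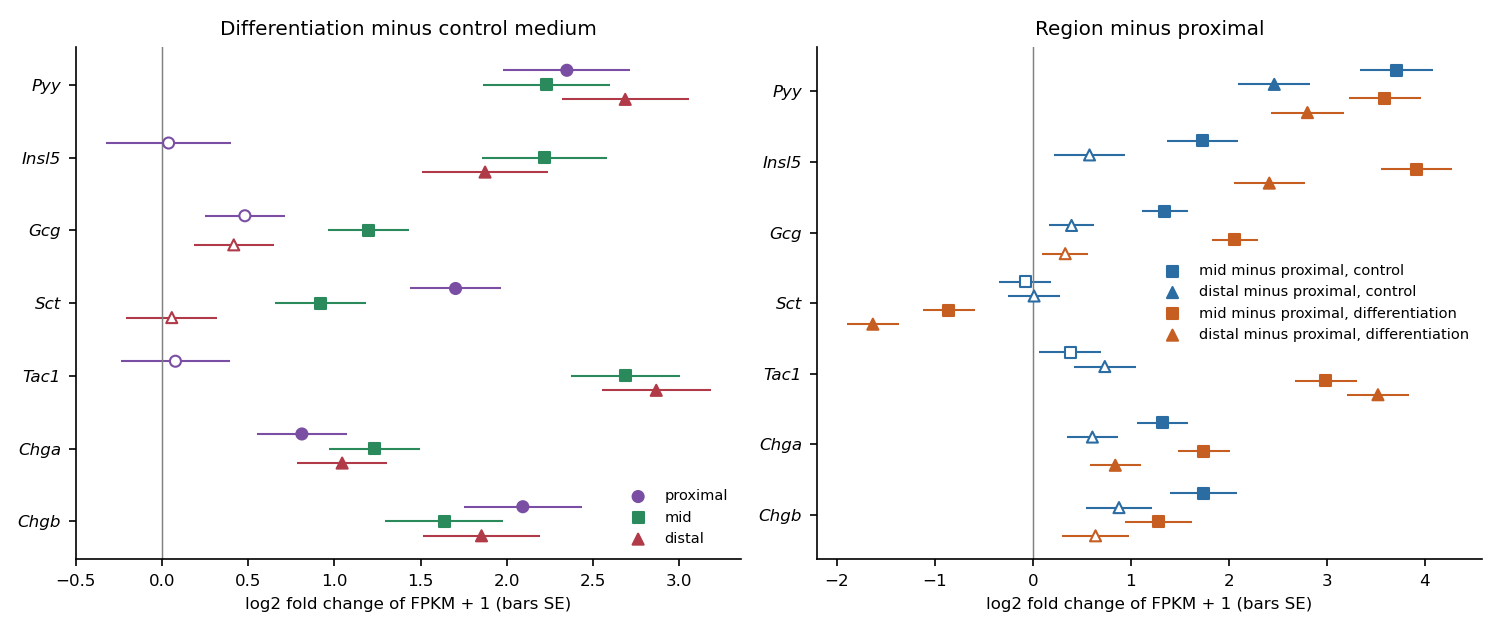
Log2 fold changes of FPKM + 1 for the 7 tested genes, with SE bars, for differentiation against control medium in each region (left) and for mid or distal against proximal organoids in each medium (right). Filled markers have an adjusted p under 0.05. On the left Tac1 and Insl5 are near 0 in proximal organoids only, and on the right Sct is the gene with negative values in differentiation medium.

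Regions were then compared within a medium, which addresses the regional identity named in the title of the series. In control medium 5 of the 7 tested genes were called higher in mid than in proximal organoids, where 7.99% of all tested genes were called higher and 13.3% in either direction. Their log2 differences were 3.71 ± 0.37 for Pyy (adjusted p = 5.1e-06), 1.74 ± 0.34 for Chgb (adjusted p = 0.00304), 1.73 ± 0.36 for Insl5 (adjusted p = 0.00495), 1.35 ± 0.23 for Gcg (adjusted p = 0.00111) and 1.32 ± 0.26 for Chga (adjusted p = 0.00337). Insl5 was at least 31.2-fold higher in mid than in proximal control organoids, against a floor of 3 reads over the proximal group. Gcg and Chga were 14.9-fold and 12.1-fold higher by mean FPKM, on 174 against 11 and 316 against 25 reads over the libraries of each group. Goblet markers moved in the same direction between these groups, with 6 of 9 tested called higher in mid organoids and a median of 1.98, and their part in the result was not tested.

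Between distal and proximal organoids in control medium only Pyy was called among the 7, by 2.46 ± 0.37 (adjusted p = 0.000292), where 10.5% of all tested genes were called. The other 6 had log2 differences from 0.01 to 0.88, and Tac1 was found with 157 reads in distal and 3 in proximal control libraries, a ratio of 47.7 (95% exact interval 16.0 to 234, counting error only). With a pseudocount of 0.1, Tac1 (adjusted p = 0.00488), Insl5 (adjusted p = 0.0025) and Chga (adjusted p = 0.0251) were called as well. Between distal and mid organoids in control medium limma called 0 of the 7 genes, where 0.326% of all tested genes were called. In the same fit 5 of the 7 had an unadjusted p under 0.05, as did 716 of all 12896 tested genes. With the replicate number as a block, Pyy was called lower in distal organoids in this comparison (adjusted p = 0.0363).

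In differentiation medium all 7 tested genes differed between mid and proximal organoids, 6 of them higher in mid, where 15.6% of all tested genes were called higher and 29.4% in either direction. Insl5 differed most, by 3.91 ± 0.36 on the log2 scale (adjusted p = 1.08e-06), then Pyy by 3.59 ± 0.37 (adjusted p = 3.33e-06), Tac1 by 2.99 ± 0.32 (adjusted p = 4.59e-06), Gcg by 2.06 ± 0.23 (adjusted p = 8.95e-06), Chga by 1.74 ± 0.26 (adjusted p = 0.000141) and Chgb by 1.28 ± 0.34 (adjusted p = 0.0101). Sct was lower in mid, by -0.86 ± 0.26 (adjusted p = 0.0229). That Sct call was lost without proximal differentiation replicate 3 (adjusted p = 0.103), without mid differentiation replicate 1 (adjusted p = 0.0687) or 2 (adjusted p = 0.0886), and with a pseudocount of 0.1 (adjusted p = 0.095). By mean FPKM, Tac1 was 105-fold, Pyy 14.9-fold and Gcg 10.1-fold higher in mid than in proximal organoids. The Tac1 fold rests on 11 proximal reads over 3 libraries and was 188 without proximal differentiation replicate 2. Of the 9 goblet markers 4 were called higher in mid organoids here, with a median of 1.06.

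Distal and proximal organoids in differentiation medium differed in 5 of the 7 genes, where 29.9% of all tested genes were called. Tac1 was higher in distal by 3.52 ± 0.32 (adjusted p = 7.04e-07, 164-fold by mean FPKM on 1814 against 11 reads, and 293-fold without proximal differentiation replicate 2), Pyy by 2.80 ± 0.37 (adjusted p = 3.73e-05, 8.71-fold) and Insl5 by 2.41 ± 0.36 (adjusted p = 0.000132). Chga was higher by 0.84 ± 0.26 (adjusted p = 0.0245), a call that was lost without distal differentiation replicate 3 (adjusted p = 0.0963) or proximal differentiation replicate 3 (adjusted p = 0.123). It was also lost with only the groups compared (adjusted p = 0.0981) and with values scaled to total reads (adjusted p = 0.0518). With no filter it was lost at a pseudocount of 1 (adjusted p = 0.0591) and of 0.1 (adjusted p = 0.0820). Sct was lower in distal organoids by -1.63 ± 0.26 (adjusted p = 0.000255), with proximal mean FPKM 9.75-fold above the distal mean (5.98-fold without proximal differentiation replicate 3). Of the 9 goblet markers 4 were called higher and 1 lower in distal than in proximal organoids.

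Between distal and mid organoids in differentiation medium Gcg was the 1 gene of the 7 that was called, where 0.690% of all tested genes were called. Its log2 difference was -1.73 ± 0.23 (adjusted p = 0.00158), with the mid mean 5.91-fold above the distal mean. Gcg was not called here at a pseudocount of 0.1 (adjusted p = 0.0604) or with only the groups compared in the fit (adjusted p = 0.124). Insl5 had a log2 difference of -1.50 ± 0.36 (adjusted p = 0.0846), which was called without distal differentiation replicate 3 (adjusted p = 0.0129) or mid differentiation replicate 3 (adjusted p = 0.0313).

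The order of the regions by mean FPKM in differentiation medium therefore differed by gene. Pyy, Insl5, Gcg, Chga and Chgb ran from mid through distal to proximal, Tac1 from distal through mid to proximal, and Sct from proximal through mid to distal. For Pyy, Tac1, Chga, Chgb, Sct and Insl5 the distal and mid neighbours did not differ by the test, and for Gcg and Chgb the distal and proximal neighbours did not.

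The response to the medium itself was compared between regions. The distal minus proximal difference in response was called for 3 of the 7 genes, where 8.24% of all tested genes were called, and the moderated F test, which asks for unequal responses among the 3 regions, called 3, where 9.59% of all tested genes were called. Tac1 responded more in distal than in proximal organoids, by 2.79 ± 0.45 on the log2 scale (adjusted p = 0.00115; F test, adjusted p = 0.00125). Both Tac1 tests stayed under the threshold in each alternative run and with each library left out. Sct responded less in distal than in proximal organoids, by -1.65 ± 0.37 (adjusted p = 0.0137; F test, adjusted p = 0.0283). Its F test missed the threshold when 1 library was left out, namely proximal control replicate 2 (adjusted p = 0.0562) or 3 (adjusted p = 0.0807), distal control replicate 2 (adjusted p = 0.0584) or distal differentiation replicate 3 (adjusted p = 0.0515). With no filter the Sct F test was also not called, at a pseudocount of 1 (adjusted p = 0.0637) or 0.1 (adjusted p = 0.0920). In the latter run the Sct distal minus proximal call was lost too (adjusted p = 0.0540).

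Insl5 responded more in distal than in proximal organoids by 1.84 ± 0.51 (adjusted p = 0.0394; F test, adjusted p = 0.0233). Its distal minus proximal call was lost in 11 of the 18 fits that left out 1 library, with adjusted p from 0.0525 to 0.0835. The call was also lost with values scaled to total reads (adjusted p = 0.0866) or the upper quartile (adjusted p = 0.0574). With no filter it was lost at a pseudocount of 1 (adjusted p = 0.0894) and of 0.1 (adjusted p = 0.0645). Its F test was not called without proximal control replicate 2 (adjusted p = 0.0647) or 3 (adjusted p = 0.0631), without proximal differentiation replicate 2 (adjusted p = 0.0521) or 3 (adjusted p = 0.0587), with no filter (adjusted p = 0.0588) or scaled to total reads (adjusted p = 0.0662). Mid against proximal, a term added to the planned comparisons, was called for Tac1 at 2.61 ± 0.45 (adjusted p = 0.00181) and Insl5 at 2.18 ± 0.51 (adjusted p = 0.0128), where 12.0% of all tested genes were called. That Insl5 call was lost with no filter and a pseudocount of 0.1 (adjusted p = 0.0869). With 1 proximal differentiation read against 0 control reads, a proximal response of Insl5 could not be measured.

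For Pyy, Gcg, Chga and Chgb no difference in response between regions was called, with F tests at adjusted p = 0.846, 0.227, 0.767 and 0.834. For Pyy this depended on the pseudocount, since the proximal control libraries were near 0. Its mid minus proximal difference in response was -0.12 ± 0.52 with a pseudocount of 1 (adjusted p = 0.912) and -2.67 with one of 0.1 (adjusted p = 0.0253).

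The mixture of peptide hormone genes is given as shares of their summed FPKM, without a test. The summed FPKM of Pyy, Insl5, Gcg, Tac1, Sct and Cck in control medium was 0.549 ± 0.0608 (SD, n = 3) for proximal, 18.5 ± 5.66 for mid and 7.58 ± 3.57 for distal libraries. With differentiation medium the sums were 9.13 ± 2.79, 97.2 ± 21.9 and 57.3 ± 15 FPKM. In proximal differentiation libraries Pyy held 50.1% ± 8.92 and Sct 36.8% ± 13.4 of the sum. In mid differentiation libraries Pyy held 67.6% ± 10.9, Insl5 16.1% ± 6.49, Tac1 8.44% ± 4.01 and Gcg 5.99% ± 1.87. In distal differentiation libraries Pyy held 66.1% ± 12.9, Tac1 22.8% ± 14.5, Insl5 8.22% ± 3.42 and Gcg 1.79% ± 0.571. The share of Sct did not exceed 1.99% in any mid or distal differentiation library, and it was at least 25.6% in each proximal differentiation library.

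**Figure D3:**
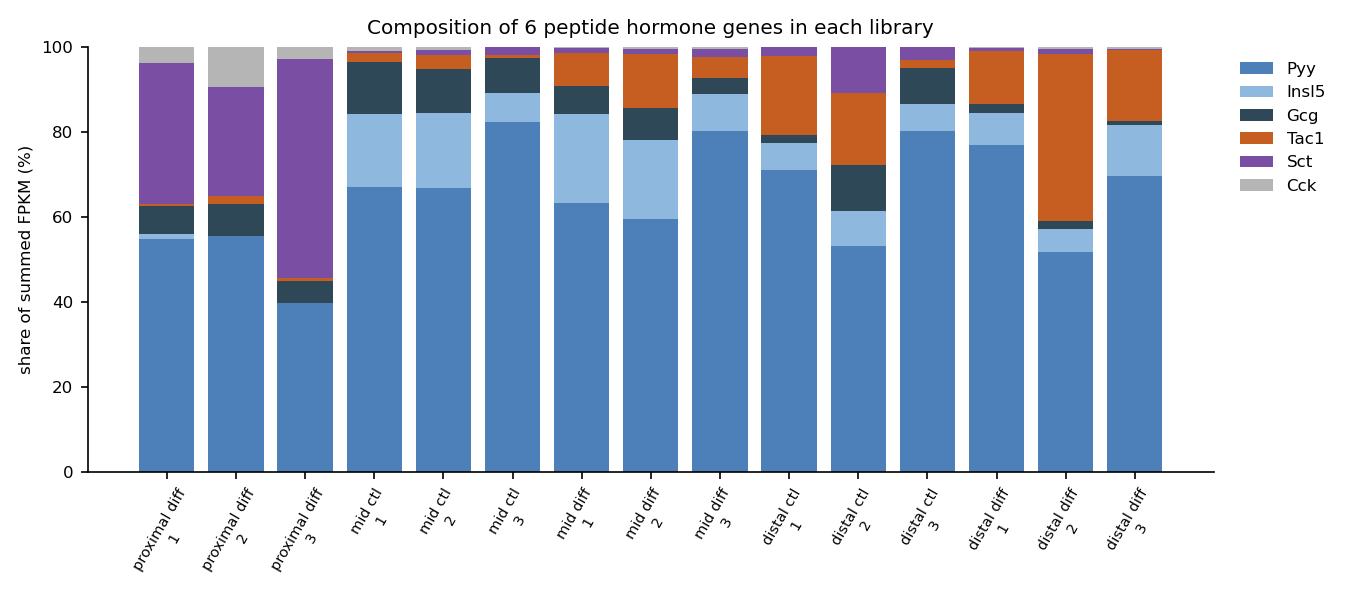
Share of each of 6 peptide hormone genes in their summed FPKM (percent), 1 stacked bar per library, for the 5 groups other than proximal control, whose sum stayed under 1 FPKM. Sct fills 25.6% to 51.7% of the proximal differentiation bars, and Tac1 12.4% to 39.4% of the distal differentiation bars.

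Ratios among the L-cell hormones were computed per library and not tested. Gcg over Pyy was 0.147 ± 0.0414 (SD, n = 3) in mid control and 0.0928 ± 0.0397 in mid differentiation libraries, with ranges that overlapped. It was 0.112 ± 0.0894 in distal control and 0.0279 ± 0.0102 in distal differentiation libraries, again overlapping. Insl5 over Gcg was 1.30 ± 0.437 in mid control and 2.64 ± 0.507 in mid differentiation libraries, whose ranges did not overlap (0.818 to 1.67 against 2.24 to 3.21). In distal libraries it was 1.69 ± 1.67 in control and 5.40 ± 4.17 in differentiation medium, and those ranges overlapped (0.714 to 3.61 against 2.72 to 10.2). Insl5 over Pyy was 0.201 ± 0.102 and 0.251 ± 0.123 in the mid groups.

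Within groups some of the genes deviated together. Over the 18 libraries, deviations of log2(FPKM + 1) from the group means had a Pearson r of 0.80 for Pyy and Chgb, 0.58 for Chga and Chgb, 0.54 for Gcg and Insl5 and 0.49 for Pyy and Chga. They were -0.42 for Pyy and Tac1 and -0.46 for Chgb and Tac1. These are descriptions, since values of 1 library share its depth and its culture. Among distal differentiation libraries, replicate 2 had the lowest Pyy (24.0 FPKM) and the highest Tac1 (18.2 FPKM), and Tac1 over Pyy ranged from 0.161 to 0.759.

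**Figure D4:**
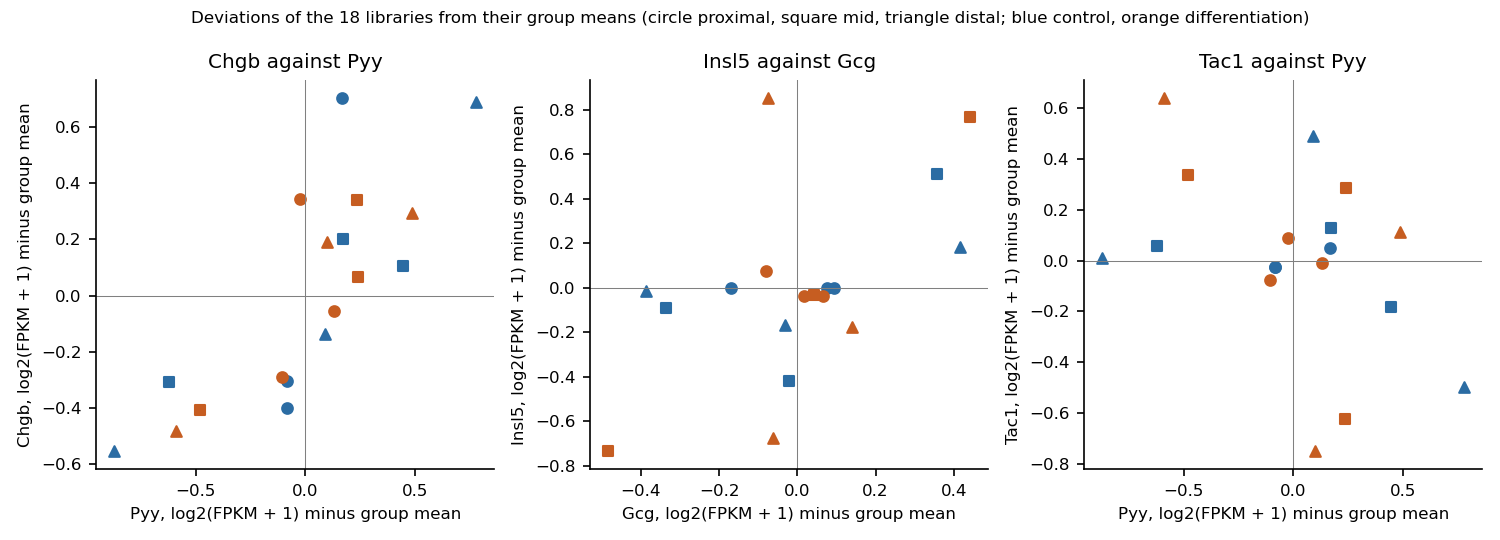
Deviations of log2(FPKM + 1) from the group mean in the 18 libraries, for Chgb against Pyy, Insl5 against Gcg and Tac1 against Pyy (circles proximal, squares mid, triangles distal, blue control and orange differentiation medium). The points rise together for Chgb and Pyy (r = 0.80) and run the other way for Tac1 and Pyy (r = -0.42).

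Over all 18 libraries, group differences included, the gene most like Chga was Pyy (r = 0.93), and Insl5 was the second most like Gcg (r = 0.88). Pyy was most like Sval1, St6galnac6 and Mb21d2 (r = 0.95 each), Tac1 most like Trpv3, Slc37a2 and Catspere2 (r = 0.98 each), and Chgb most like Fam114a1 (r = 0.95), Sprr2a3 and Fam102b (r = 0.94 each). Insl5 was most like Slfn4 and Slc2a13 (r = 0.94 each) and Mt1 (r = 0.93). Sct was most like Gsdme and Phf11b (r = 0.92 each) and Fgl2 (r = 0.90), and its r with each of the other 6 tested genes of the list lay between -0.08 and 0.35. These values also carry what the 18 libraries share by medium and region.

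Transcription factors of endocrine differentiation came next. Of 22 such genes 7 were tested and none was called higher with differentiation medium, while 2, 5 and 3 were called lower in proximal, mid and distal organoids, where 26.2%, 32.0% and 31.3% of all tested genes were called lower. The proximal and distal counts are near those shares. Their median log2 fold change was -0.05, -0.59 and -0.33, against the medians near 0 for all genes given above. Sox4, a factor of progenitors, was lower by -1.47 ± 0.27, -1.49 ± 0.27 and -1.09 ± 0.27 in proximal, mid and distal organoids (adjusted p = 0.000386, 0.000208 and 0.00254). Foxa2, a forkhead factor of gut epithelium, was lower by -1.49 ± 0.22 in mid and -1.26 ± 0.22 in distal organoids (adjusted p = 3.01e-05 and 0.00014), and its relative Foxa1 was lower in all 3 regions, by -0.66, -0.63 and -0.47 (highest adjusted p = 0.00677).

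Neurog3, which sets endocrine fate and is named here after its values were seen, was at 0.188 ± 0.00831 FPKM (SD, n = 3) in proximal control, 1.74 ± 0.937 in mid control and 0.864 ± 0.367 in distal control libraries. In differentiation medium it was at 0.191 ± 0.137, 0.773 ± 0.420 and 0.639 ± 0.188. It was higher in mid than in proximal control organoids, by 1.14 ± 0.25 (adjusted p = 0.00609), and in mid organoids lower with differentiation medium, by -0.59 ± 0.25 (adjusted p = 0.0473). The lack of factors called higher holds for those that passed the filter. With no filter on low values, 7 of the 22 were called higher and 5 lower in mid organoids, where 15.4% and 15.3% of 28798 genes were, and in distal organoids 2 went up and 4 down past the threshold, where 14.6% and 14.9% of genes did.

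Genes of granules and prohormone processing were examined in the same way. Of 22 genes 9 were tested. In proximal, mid and distal organoids 5, 6 and 4 were called higher, and the medians over the 9 were 0.44, 0.86 and 0.46. The shares of all tested genes called higher were 27.6%, 31.5% and 31.6%. In each region 1 gene of this list was called lower, where 26.2%, 32.0% and 31.3% of all tested genes were. Ddc, the decarboxylase that completes serotonin synthesis and is also made by other epithelial cells, rose by 1.21 ± 0.14, 1.69 ± 0.14 and 1.80 ± 0.14 (adjusted p = 7.42e-06, 1.47e-07 and 9.47e-08). Scg2, which encodes secretogranin II, rose by 1.09 ± 0.16 in mid and 1.0 ± 0.16 in distal organoids (adjusted p = 3.03e-05 and 7.3e-05). With values scaled to total reads, 2, 4 and 2 genes of this list were called higher, where 18.3%, 18.8% and 18.2% of genes were.

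Of 12 further gut peptide genes 3 were tested. Vip, which encodes vasoactive intestinal peptide, better known from neurons, rose with differentiation medium by 1.76 ± 0.46 in proximal organoids (adjusted p = 0.00454) and by 1.10 ± 0.46 in mid organoids (adjusted p = 0.047). Its mean FPKM was 8.42 ± 6.03 in proximal differentiation, 1.78 ± 1.58 in mid differentiation and 0.0769 ± 0.0862 in distal differentiation libraries, and its distal minus proximal difference there was -2.84 ± 0.46 (adjusted p = 0.000247). Ppy, which encodes pancreatic polypeptide, a relative of peptide YY, had 0 reads in all proximal libraries and rose by 1.25 ± 0.31 in mid and 1.04 ± 0.31 in distal organoids (adjusted p = 0.0023 and 0.0078). The proximal count of 1 called peptide became 0 with only the groups compared in the fit.

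Receptor genes were at low levels, with 1 exception. Of the 15 genes found among 17 listed receptors for nutrients and other stimuli, only Ffar4, a receptor for long-chain fatty acids that is not limited to endocrine cells, was tested. It rose in proximal organoids, by 1.03 ± 0.27 (adjusted p = 0.0047), and was lower in distal than in proximal differentiation organoids, by -1.95 ± 0.27 (adjusted p = 5.62e-05). With only the groups compared in the fit the proximal rise was not called. None of 19 genes for receptors of the hormones themselves passed the filter, and their summed FPKM ranged from 0.418 to 1.82 over the 18 libraries.

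Genes that steer secretory fate were called about as often as genes in general. Of 10 genes of Notch signalling and secretory fate, all tested, 2, 1 and 3 were called higher and 4, 6 and 4 lower in proximal, mid and distal organoids, with medians of -0.17, -0.37 and -0.17. The 6, 7 and 7 called of 10 are near the 53.8%, 63.5% and 62.9% called over all tested genes. Atoh1, the factor that commits progenitors to secretory fates, rose by 2.0 ± 0.32 in proximal organoids (adjusted p = 0.000118), and Jag1, a Notch ligand, was lower by -1.94 ± 0.29, -1.61 ± 0.29 and -2.01 ± 0.29 (adjusted p = 6.84e-05, 0.000188 and 2.88e-05). The goblet genes had medians of 2.62, 2.18 and 3.10, and their summed FPKM per control library ranged from 68.5 to 184 for proximal, 386 to 561 for mid and 177 to 265 for distal organoids. Per differentiation library the ranges were 1067 to 1725, 2282 to 3806 and 1836 to 2397. Zg16, which encodes a lectin-like goblet protein, had the largest rise of the 9 in each region, by 7.02 ± 0.54, 5.49 ± 0.54 and 6.71 ± 0.54 (adjusted p = 1.51e-07, 7.68e-07 and 1.26e-07). None of 10 tuft cell markers passed the filter, and their summed FPKM ranged from 0.160 to 3.14.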

How the data were processed

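RNA sequencing was analysed in 18 libraries of mouse colon organoids. The authors deposited FPKM values per gene and library, per the file headers, with the gene length in bases, gene names and mm39 positions. The submitters' processing notes name HISAT2 2.0.5, featureCounts 1.5.0-p3 and mm39, and neither the annotation release nor the scaling of libraries is given in the sources used here. Whether strand was kept is not clear from the labels, so antisense reads cannot be told apart. FPKM multiplied by length gave whole reads for 100% of values within 0.001 of a read, which gave depths and read counts, and the summed reads stood at 0.831 to 1.32 times the library size implied by the FPKM. The table also holds 6 columns of group means by the authors, not tested, and 0 columns could not be mapped.

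One model with 6 group means was fitted with limma 3.58.1 (R 4.3.3, empirical Bayes with trend, two-sided tests on 12 residual degrees of freedom) to log2(FPKM + 1) of the 18 libraries, for genes reaching FPKM 1 in 3 or more. Benjamini-Hochberg adjustment ran over all 12896 tested genes within a comparison. A pseudocount of 1 understates folds of low genes. Errors are SE of the fit, or SD over 3 libraries. Fold changes against a group with 0 reads are against 3 reads per group, and ratios with 1 to 3 reads in a group have a 95% exact interval; both cover counting error only. The script was tested on simulated data. The 10 genes and the 9 further lists (132 entries) were chosen with earlier results of these data known, and no count over a list is independent evidence of its direction. Beside the 10 genes, at most 3 called genes with the largest change are named per list and medium or distal against proximal comparison, and the 3 genes most alike by r; others are said to be named after their values were seen. A gene that this rule would name is not reported here. Alternatives were a pseudocount of 0.1, no filter, a filter at FPKM 5, scaling to total reads or the upper quartile, only the groups compared, the replicate block, leaving out each library and, chosen after seeing the data, no filter with a pseudocount of 0.1. Gene positions are on mm39 and promoter sequences on GRCm38.p6. Software was Python 3.11.15 with numpy 2.4.6, pandas 2.3.3 and matplotlib 3.10.9.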

Additional observations from a re-analysis of the deposited data

Results flagged for a closer look

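The response to differentiation medium differed between regions, by a test of the difference itself, for 3 of the 7 tested hormone and marker genes. Of all tested genes 8.24% were called for distal minus proximal and 9.59% by the F test. For Tac1 the distal response exceeded the proximal one by 2.79 on the log2 scale, and the F test over the 3 regions gave an adjusted p of 0.00125 (limma). Proximal Tac1 was at most 0.141 FPKM, so the pseudocount shrinks its log2 change and a difference in relative response is not settled. For Sct the distal minus proximal difference was -1.65 and the F test gave an adjusted p of 0.0283 (limma). The Sct F test missed the threshold with no filter (adjusted p = 0.0637) and in some fits that left out 1 library (highest adjusted p = 0.0807). For Insl5 the difference was 1.84 and the F test gave an adjusted p of 0.0233 (limma), on a gene with 1 read in all proximal libraries together. The Insl5 distal minus proximal call was lost in most fits that left out 1 library (highest adjusted p = 0.0835, limma). The Insl5 F test missed the threshold without any 1 of proximal control replicates 2 and 3 and proximal differentiation replicates 2 and 3, with adjusted p of 0.0647, 0.0631, 0.0521 and 0.0587.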

How the results depend on the processing

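No called value of a hormone or marker gene changed direction under any alternative run. Scaling to total reads moved the median of all genes by -0.25, -0.34 and -0.35 in the proximal, mid and distal medium comparisons, and 18.3%, 18.8% and 18.2% of genes were then called higher and 40.6%, 47.1% and 47.8% lower, against 26.2%, 32.0% and 31.3% lower as deposited. The counts of 4, 7 and 5 called genes were the same under it. Scaling to the upper quartile moved those medians by -0.11, -0.06 and -0.12.

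A filter at FPKM 5 tested only 4 of the genes and called 2 in the proximal and 4 in the mid medium comparison, 3 between mid and proximal control organoids, 3 and 4 between distal or mid and proximal differentiation organoids, and 0 between distal and mid differentiation organoids. Between distal and proximal control organoids 4 were called with a pseudocount of 0.1 (with or without the filter) and 2 with only the groups compared. Between distal and mid differentiation organoids 0 were called with a pseudocount of 0.1 (with or without the filter) or with only the groups compared. For the distal minus proximal difference in response 1 was called with no filter and a pseudocount of 0.1, and for the F test 1 was called with no filter, with either pseudocount. In the F test with no filter and a pseudocount of 1, 3.96% of 28798 genes were called. Shares of all genes are not given for the other runs of this and the next paragraph, so those counts have no background here.

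Leaving out 1 library gave 3 to 4, 7 and 5 to 6 calls in the proximal, mid and distal medium comparisons, 1 to 2, 5 and 0 between distal and proximal, mid and proximal, and distal and mid control organoids, 4 to 5, 6 to 7 and 1 to 2 for the same pairs in differentiation medium, 2 to 3 for the distal minus proximal response and 1 to 3 for the F test. The replicate block gave 2 calls between distal and proximal and 1 between distal and mid control organoids. Same-numbered libraries had an r of their deviations over 0.1 in 23 of 45 pairs (median 0.11), against 20 of 90 pairs with different numbers (median -0.06). Same-numbered libraries thus deviated together more often, but the labels tie the numbers to nothing. The libraries were not treated as paired in the main fit, and what same-numbered libraries share was not tested. Depth limits Sct, Cck, Tph1, Neurod1 and the proximal values of Tac1, Insl5, Pyy and Gcg, which rest on few reads.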
